A study of Mus musculus with 16 samples.

Results

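The clustered replication-dependent histone genes were followed in mouse ESCs in which RAM, the small protein that activates the mRNA cap methyltransferase RNMT, had been reduced by siRNA. Genes were chosen by name and level: those whose symbol begins with Hist1h, Hist2h, Hist3h or Hist4h, with a mean of at least 10 counts over the 8 input libraries. Of the 46983 genes in the count table, 68 carry such a symbol and 58 reached the minimum. They are 6 H1, 14 H2A, 15 H2B, 11 H3 and 12 H4 genes. Clusters are taken from the symbol: 48 genes are named for the Hist1 cluster on chromosome 13 and 7 for the Hist2 cluster on chromosome 3. The Hist3 cluster on chromosome 11 has 2, and 1, Hist4h4, is on chromosome 6. Of the 48, Hist1h2al (chr13:51202727-51203065) lies far from the rest and so outside the Hist1 cluster by position. The mean input count just below the minimum was 9.0 for both Hist3h2a and Hist2h2aa2, and just above it 21.1 for Hist3h2bb-ps and 25.1 for Hist2h3c2. The cells were 46C ESCs, a Sox1-GFP reporter line from strain 129Ola grown without feeder cells in LIF. Cultures were transfected with siRNA to RAM or with a control siRNA that has no target and taken 48 hr later, and all groups shared the transfection reagent and the cycloheximide given before lysis. From each culture the cytoplasmic lysate (input) and the pooled polysome fractions of a sucrose gradient were sequenced, which gives 4 groups of 4 libraries: input control, input RAM siRNA, polysome control and polysome RAM siRNA. A result holds for this 1 cell line and for transfected cells at 1 time. For the 4 replicates the paper names 1 siRNA to RAM, so loss of RAM and other effects of that siRNA cannot be told apart. The paper also reports slightly fewer cells after RAM siRNA.

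Replication-dependent histone genes supply the histone proteins that package newly made DNA, and their mRNAs accumulate when a cell copies its genome in S phase. The core histones H2A, H2B, H3 and H4 form the nucleosome, and linker histone H1 binds the DNA between nucleosomes. The transcripts as a rule have no introns and, in place of a poly(A) tail, end just after a conserved stem-loop in the 3′ UTR, which SLBP binds and the U7 snRNP recognises during 3′ end formation. They do carry a 5′ cap, whose guanosine RNMT-RAM methylates. The libraries were made from ribosomal-RNA-depleted total RNA with random priming, so that transcripts without a tail were kept.

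The stem-loop was searched for in the annotated bases after the stop codon of GENCODE M21 transcripts (GRCm38), as a run of 16 bases that begins with GG, ends with CC, has a 6-base stem whose arms pair throughout (G with T allowed), and has a 4-base loop with T first. Among the 58 genes, 41 have annotated bases after the stop codon (16 or more) and 37 of these hold the element, against 716 of 22462 other coding genes (3.19%). The other coding genes were counted whether or not they have such bases, so the shares are over unlike sets. It begins between 22 and 55 bases after the stop codon. The annotation also gives 3 of the 58 genes, Hist1h2bc, Hist1h2be and Hist1h2bp, an intron. The set below holds 1 gene for each of the 8 forms found and is shown because the element separates these mRNAs from the polyadenylated ones and its stem differs between families. Capitals mark stem and loop, and 5 flanking bases stand on either side.
Hist1h1d: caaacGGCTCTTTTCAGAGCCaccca
Hist1h3e: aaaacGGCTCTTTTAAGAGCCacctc
Hist2h2ac: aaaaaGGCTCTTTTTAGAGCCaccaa
Hist1h3g: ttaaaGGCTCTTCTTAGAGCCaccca
Hist1h4d: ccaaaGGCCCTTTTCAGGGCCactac
Hist1h4i: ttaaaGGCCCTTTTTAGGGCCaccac
Hist1h4a: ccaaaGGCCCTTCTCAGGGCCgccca
Hist1h4b: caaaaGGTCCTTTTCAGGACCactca
The form of Hist1h1d was found in 18 genes of the H1, H2A, H2B and H3 families and that of Hist1h3e in 6. The form of Hist1h4d was found in 6 H4 genes, those of Hist1h4i and Hist1h4b in 2 each, and the other 3 in 1 gene each. All 26 elements of the H1, H2A, H2B and H3 genes open with GGCTCT, and none of the 11 elements of H4 genes does.

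Libraries held between 16647523 and 20147833 counts. Values are CPM, which relate each count to its library's size, after TMM scaling of the 16 libraries together. Ramac, which encodes RAM, had 10.6, 10.1, 10.8 and 11.6 CPM in replicates 1 to 4 of input control and 3.11, 2.67, 3.11 and 3.17 CPM in input RAM siRNA, so the groups did not overlap (log2 fold change -1.84, standard error 0.11, adjusted p = 7.24e-06, edgeR). Rnmt rose in the same libraries by 0.37 on the log2 scale (adjusted p = 0.0389, edgeR), with its smallest step in replicate 4, from 208 to 225 CPM. The 8 ESC markers summed to between 2890 and 3025 CPM in input control and between 2463 and 2583 in input RAM siRNA. Of the 8, 3 fell, Nanog (-0.29), Esrrb (-0.25) and Dppa5a (-0.36), where 5.94% of all genes tested fell, and 7 fell in a fit with the replicate number as a factor, where 19.0% of all genes did. Neural, mesoderm and fibroblast markers summed to at most 91.9, 16.1 and 11.2 CPM in any input library. The 4 primitive endoderm markers summed to between 7.17 and 7.46 CPM in input control and between 10.5 and 11.1 in input RAM siRNA. Of the 3 tested 2 rose, Gata6 (0.61) and Dab2 (0.55), where 6.95% of all genes tested rose. No marker was at 0 in every library. The part of these shifts in the results below was not tested.

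In the level of the histone genes, replicate 4 stood apart from the others for both siRNAs and in both fractions. Summed over the 58 genes, input control held 4425, 4215, 4621 and 5987 CPM in replicates 1 to 4, and input RAM siRNA held 3775, 3551, 4069 and 6386. Polysome control held 5456, 5007, 7978 and 17846 CPM, and polysome RAM siRNA 5179, 3133, 9027 and 18296. Replicate 4 was thus 1.35 times the mean of the other 3 in input control, 1.68 times in input RAM siRNA, 2.90 times in polysome control and 3.17 times in polysome RAM siRNA. Replicate 3 also lay above replicates 1 and 2 in polysomes. In other lists, 26 S-phase genes summed to 4106, 4220, 3998 and 4430 CPM in input control and 3400, 3552, 3451 and 3962 in input RAM siRNA, with replicate 4 the highest of both. In polysomes replicate 4 of this list was not the highest. The sums there were 7042, 7236, 5896 and 6300 CPM in control and 5092, 6736, 4227 and 5029 in RAM siRNA. The 11 histone genes outside the clusters summed to 2112, 1923, 3128 and 4296 CPM in polysome control and 2325, 1397, 3900 and 4719 in polysome RAM siRNA. Their input sums were 2033, 2116, 2141 and 2249 CPM in control and 1962, 1997, 2108 and 2298 in RAM siRNA. Because same-numbered libraries moved together, results are given also with the replicate number as a factor (replicate block) and without replicate 4. What sets replicate 4 apart was not tested.

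**Figure D1:**
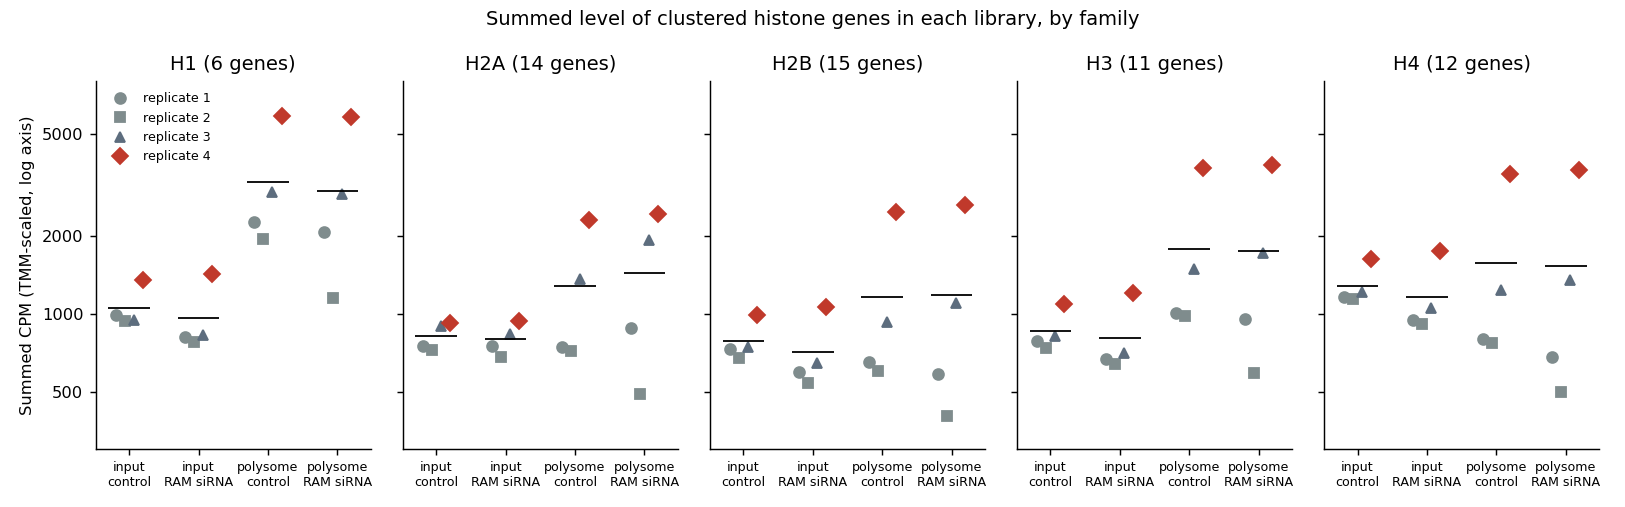
Summed CPM (log axis) of the genes of each histone family in the 16 libraries, with 1 symbol per replicate and a black line at the mean of 4 libraries. Replicate 4 (red) has the highest sum in every group of every family, and the step is largest in polysomes.

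All 5 families were expressed in these ESCs, and a few genes carried much of each family. In input control the families summed to 1058 ± 198 CPM for H1, 824 ± 102 for H2A, 784 ± 138 for H2B, 859 ± 162 for H3 and 1287 ± 229 for H4 (SD, n = 4). Divided by coding length, which is 627 to 669 bases for H1, 384 to 390 for H2A, 378 to 414 for H2B, 408 for H3 and 309 for H4, the level summed to 1626 ± 304 CPM per coding kb for H1, 1864 ± 230 for H2A, 2066 ± 364 for H2B, 2106 ± 397 for H3 and 4167 ± 741 for H4. On this scale H4 lay above the other families by more than the SDs, while the mean ± SD ranges of H2A, H2B and H3 overlapped. The counts are reads per gene and can include bases outside the coding part. Annotated exons of H4 genes run from 312 bases (Hist1h4k) to 2863 (Hist4h4), so the place of H4 depends on the length used. Families were not compared per kb of exon. Together the 58 genes took 0.439% to 0.637% of the counts of input control libraries. Many of these genes are near copies. For 20 of 58, fewer than 50% of the 75-base windows of their exons occur only once among the annotated transcripts, from 6.5% for Hist1h3h to 100% for 6 genes. How reads were split among copies depends on the counting, and its settings for shared reads and strand are not given in the sources used here.

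The strongest H1 gene was Hist1h1a (ENSMUSG00000049539, chromosome 13, 23763666 to 23764406, + strand), with 289, 263, 279 and 389 CPM in input control. Hist1h1d (chr13:23553262-23560686) followed with 253, 239, 243 and 346 CPM, and Hist1h1c (chr13:23738808-23740367) with 199, 192, 181 and 268. These encode somatic linker histones, and in all 3 replicate 4 was the highest of its group. The testis linker histone gene Hist1h1t (chr13:23695814-23696725) was low, at 3.60, 2.21, 2.68 and 4.28 CPM.

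Among core histone genes the highest were Hist1h2ak, Hist1h2ab and Hist1h2al for H2A, Hist1h2bb, Hist1h2bg and Hist1h2be for H2B, Hist1h3e, Hist1h3f and Hist1h3c for H3, and Hist1h4d, Hist1h4a and Hist1h4h for H4. Hist1h3e (chr13:23561534-23562369, - strand) had 197, 184, 193 and 267 CPM in input control, and Hist1h4d (chr13:23581598-23582735, + strand) had 232, 233, 240 and 315. Hist1h2ak (chr13:21753435-21753827, - strand) had 151, 143, 162 and 182 CPM, and Hist1h2bb (chr13:23746734-23747241, + strand) had 150, 139, 155 and 205. In all 4 genes replicate 4 was the highest. Hist1h2ab had 96.1, 94.2, 116 and 117 CPM, Hist1h2bg 102, 96.4, 109 and 133, and Hist1h2be 80.8, 74.0, 80.2 and 110. Hist1h3f had 131, 118, 129 and 177 CPM, Hist1h4a 178, 176, 192 and 240, and Hist1h4h 157, 151, 163 and 213. Hist1h2al (chr13:51202727-51203065, - strand) is annotated as a processed pseudogene. It had 97.6 ± 12.4 CPM (SD, n = 4), and 54.3% of its 75-base windows are its own. Hist1h2be spans 23583670 to 23621124 and overlaps Hist1h1e on the same strand, so reads of both are uncertain. On the other strand 17 of the 58 genes have an annotated neighbour. Mean levels over all 16 libraries ran from 0.81 CPM for Hist2h2be to 324 CPM for Hist1h3e among core histone genes.

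The comparison of RAM siRNA with control in input asks whether the steady level of these mRNAs changed when RAM was reduced. Most histone genes had lower values after RAM siRNA, by a small amount, in 3 of the 4 replicates. Without the replicate block, 1 of 55 genes tested fell and 1 rose, Hist1h2af and Hist1h2aa, where 5.94% of all 12805 genes tested fell and 6.95% rose (edgeR quasi-likelihood test, Benjamini-Hochberg adjusted p under 0.05). The median log2 fold change was -0.11, against 0.00 over all genes, and 44 of the 55 values were negative. With the replicate block 24 genes fell (43.6%) and 2 rose (3.6%), where 19.0% of all genes fell and 20.3% rose. Over all genes 2433 fell and 2595 rose with the block, and 761 and 890 without it. The counts the paper reports for this comparison lie near those with the block. The other 3 of the 58 genes, Hist2h2be, Hist2h3c2 and Hist3h2bb-ps, did not pass the filter on low values.

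Read against the 19.0% of all genes that fell with the block, the families differed in count, though a difference between them was not tested. Those that fell were 3 of 6 H1 genes, 3 of 14 H2A, 6 of 13 H2B, 5 of 10 H3 and 7 of 12 H4 genes, with family medians of -0.14, -0.07, -0.15, -0.17 and -0.16 on the log2 scale. Hist1h1d fell by 0.28 (standard error 0.05, adjusted p = 0.000276 in edgeR with the block), from 253, 239, 243 and 346 CPM to 190, 186, 196 and 339. Hist1h4d fell by 0.25 (standard error 0.05), from 232, 233, 240 and 315 CPM to 177, 181, 202 and 316. Hist1h3c fell by 0.27 (standard error 0.06), from 93.9, 98.4, 107 and 132 CPM to 73.4, 72.4, 82.2 and 139. In these genes the first 3 replicates of RAM siRNA lay below all control libraries and replicate 4 did not. Hist1h3e, the strongest H3 gene, passed in neither fit and had 187, 182, 185 and 321 CPM after RAM siRNA, against 197, 184, 193 and 267. In the Hist2 cluster 4 of the 5 genes tested fell with the block (median -0.30), among them Hist2h2ab (-0.38) and Hist2h2ac (-0.33). Of the 48 genes with a Hist1 symbol 20 fell (median -0.12). A difference between clusters was not tested. In bulk RNA, fewer cells in S phase and less histone mRNA per cell cannot be told apart.

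Replicate 4 went the other way. Of the 55 genes, 46 were lower after RAM siRNA in pair 1, 50 in pair 2 and 50 in pair 3, but 14 in pair 4, where 48.6% to 50.4% of all genes tested were lower in the 4 pairs. The median log2 ratio was -0.25, -0.21, -0.18 and 0.08 in pairs 1 to 4. In all, 30 genes were lower in the first 3 pairs and higher in pair 4, 14 were lower in all 4 and 3 were higher in all 4. Without replicate 4, 20 genes fell and 1 rose with no block (7.49% and 8.44% of all genes), and 38 fell and 1 rose with the block (18.7% and 20.1% of all genes), with a median of -0.21. All 24 genes that fell in the 4 pairs were among these 38.

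**Figure D2:**
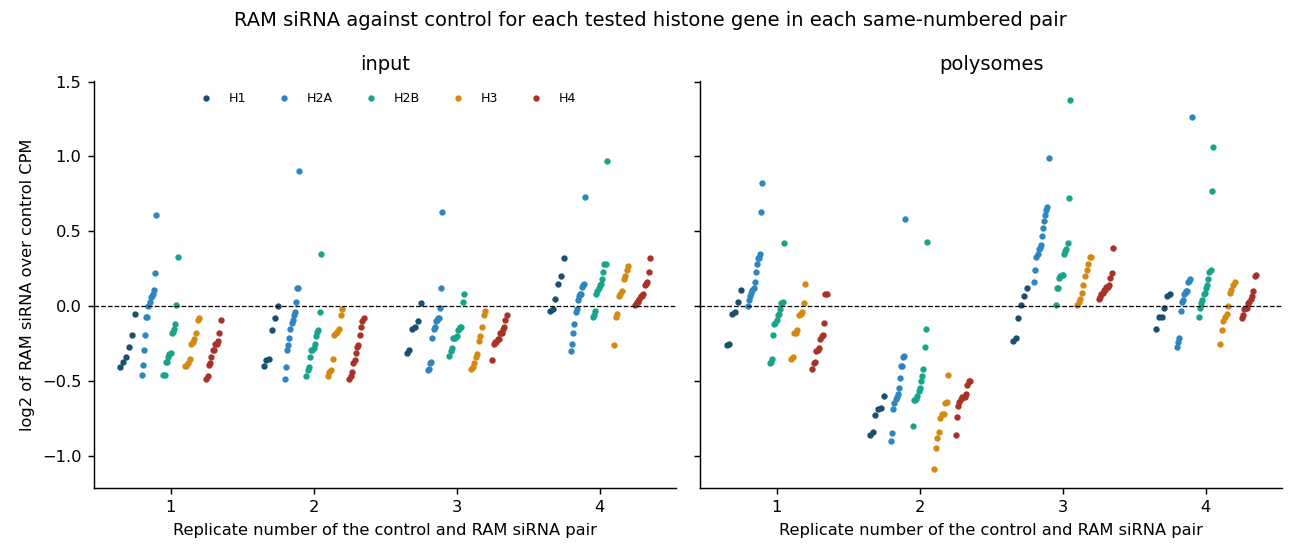
Log2 ratio of RAM siRNA over control CPM (with 0.5 CPM added) for the 55 histone genes tested, in input and in polysomes, in each same-numbered pair of libraries; points are genes, coloured by family. In input most genes lie below 0 in pairs 1 to 3 and above it in pair 4, and in polysomes pairs 2 and 3 lie on opposite sides.

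Hist1h2aa and Hist1h2af were the genes whose libraries did not overlap between the siRNAs in input, 1 in each direction, where 9.39% and 8.62% of all genes tested did so. Hist1h2af (chr13:23533906-23534304, + strand), an H2A gene, had 65.5, 74.9, 85.0 and 77.9 CPM in control and 53.6, 53.1, 65.3 and 63.3 CPM in RAM siRNA. All 4 RAM siRNA libraries, replicate 4 included, lay under every control library. Its log2 fall of -0.37, with a standard error of 0.10, had an adjusted p of 0.0258 in edgeR and of 3.63e-06 with the block. Without the block the call was lost when replicate 2, 3 or 4 of input control or replicate 1 or 2 of input RAM siRNA was left out (adjusted p of 0.0543 to 0.0863). Of its 75-base windows 29.5% are its own, and it overlaps Gm44297 on the other strand.

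Hist1h2aa (chr13:23934462-23934851, + strand) encodes TH2A, an H2A variant known from testis, egg and early embryo. It had 4.07, 3.81, 4.00 and 5.07 CPM in input control and 6.50, 7.54, 6.44 and 8.71 CPM in RAM siRNA, so every RAM siRNA library was above every control library. Its log2 rise of 0.78, with a standard error of 0.14, had an adjusted p of 0.00451 in edgeR and of 1.48e-05 with the block. Without replicate 2 of both siRNAs its adjusted p was 0.0547. All of its 75-base windows are its own, but it overlaps Gm44344 on the other strand, and whether the counting used strand is not given. Hist1h2ba (chr13:23933773-23934156, - strand), which encodes the partner TH2B, starts 306 bases away on the other strand and is named here after its values were seen. It had 2.11, 2.36, 1.64 and 1.91 CPM in control and 2.78, 3.13, 1.77 and 4.24 CPM in RAM siRNA, with groups that overlapped. Its log2 fold change of 0.56 did not pass without the block (adjusted p = 0.151) and passed with it (0.55, standard error 0.18, adjusted p = 0.0178, edgeR). Without replicate 4 Hist1h2ba did not pass, with or without the block.

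The region between this divergent gene pair is shown since Hist1h2aa was higher after RAM siRNA and Hist1h2ba, which passed with the block only, shares it. Whether it has a part in either change was not tested. It is the 250 bases before the RefSeq start of Hist1h2aa (GRCm38.p6, chr13:23934187-23934436, + strand), and capitals mark matches on either strand to CCAAT, to TATAAA and to the octamer ATTTGCAT, elements known from histone promoters.
Hist1h2aa: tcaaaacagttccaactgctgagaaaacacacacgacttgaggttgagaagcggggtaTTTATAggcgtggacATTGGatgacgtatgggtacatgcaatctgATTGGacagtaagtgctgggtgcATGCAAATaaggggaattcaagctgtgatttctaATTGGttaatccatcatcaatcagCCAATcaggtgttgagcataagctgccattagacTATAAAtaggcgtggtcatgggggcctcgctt
It holds 4 CCAAT matches, 2 TATAAA matches, 1 toward each gene, and 1 octamer between them. RefSeq promoters of 300 bases were matched for 51 of the 58 genes, 52 promoters in all since Hist1h2be has 2. CCAAT was found in all 41 matched promoters of H1, H2A, H2B and H3 genes and in 3 of 11 of H4 genes, against 37.4% of all 32851 promoters. The octamer was found in 6 of 13 H2A and 6 of 13 H2B promoters and in 0 of the others, against 1.7% of all promoters, and TATAAA in 33 of 52, against 13.6%. Divergent H2A and H2B genes share part of their windows, so these counts are not independent. Hist1h2af has CCAAT alone of the 3.

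**Figure D3:**
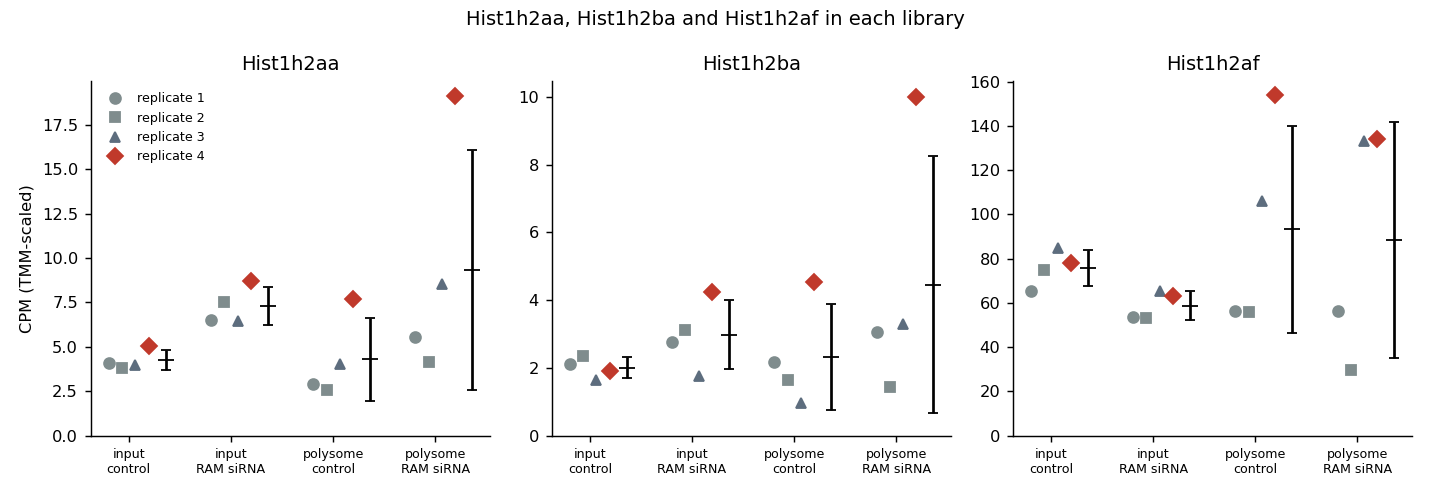
CPM of Hist1h2aa, Hist1h2ba and Hist1h2af in the 16 libraries, 1 symbol per replicate, with the mean and SD of 4 libraries beside each group. In input the RAM siRNA libraries lie above the control libraries for Hist1h2aa, below them for Hist1h2af, and overlap them for Hist1h2ba.

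In polysomes, which hold mRNAs bound by several ribosomes, no histone gene passed without the block. Of the 55 genes 0 fell and 0 rose, and 0 had an unadjusted p under 0.05, where 0.0234% of all genes fell and 0% rose (edgeR). DESeq2 also called 0 of them, with 1 at an unadjusted p under 0.05. The median log2 fold change was 0.04, against 0.06 over all genes. With the block 0 fell and 3 rose, where 4.97% of all genes fell and 9.68% rose. These 3 were Hist1h2aa (1.09, standard error 0.15, edgeR adjusted p = 0.000312), Hist1h2ba (0.91, standard error 0.24, adjusted p = 0.0172) and Hist3h2ba (0.66, standard error 0.18, adjusted p = 0.0215), an H2B gene of the Hist3 cluster. Hist1h2aa had 2.92, 2.60, 4.06 and 7.68 CPM in polysome control and 5.55, 4.13, 8.56 and 19.1 in polysome RAM siRNA. It was thus higher after RAM siRNA in all 4 pairs although the groups overlapped, and it alone passed without replicate 4 (0.92). Hist3h2ba had 2.44, 1.27, 2.65 and 6.08 CPM against 2.47, 1.89, 4.71 and 10.7.

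The pairs differed from each other more in polysomes than in input. Of the 55 genes, 33, 53, 3 and 21 were lower after RAM siRNA in pairs 1 to 4, with median log2 ratios of -0.05, -0.62, 0.20 and 0.05, whereas 51.2% to 54.8% of all genes were lower. Hist1h1a, for example, had 653, 530, 839 and 1636 CPM in polysome control and 630, 329, 878 and 1725 in polysome RAM siRNA. The spread between replicates of 1 group, here 498 CPM (SD), exceeded the difference between the groups. Which library is left out sets the direction: without replicate 4 of polysome control the median was 0.69 with all 55 genes above 0, and without replicate 4 of polysome RAM siRNA it was -0.66 with 51 below 0.

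Polysome loading, the polysome level over the input level, was then compared between histone families in control cells. Input RNA was purified with Trizol, and polysome RNA with phenol and chloroform followed by LiCl precipitation. In these ratios, between families and against other genes, fraction and purification thus cannot be told apart. Loading was highest for H1, next for H3, lower for H2A and H2B and lowest for H4. Without the block 14 of 55 histone genes were higher in polysomes than in input, all 6 H1 genes and 8 of 10 H3 genes, and 0 were lower, where 33.1% of all genes were higher and 34.3% lower (edgeR). The median log2 ratio was 0.58, against 0.00 over all genes. With the block 17 were higher and 0 lower, where 35.1% and 37.2% of all genes were. Hist1h1t had the largest ratio (1.90, standard error 0.35, edgeR adjusted p = 0.000522), with 3.60, 2.21, 2.68 and 4.28 CPM in input and 9.85, 7.20, 9.70 and 21.8 CPM in polysomes. Hist1h1b (1.75), Hist1h1d (1.61), Hist1h1e (1.58), Hist1h1a (1.56) and Hist1h1c (1.52) followed. For each of the 6 H1 genes the polysome libraries lay above all input libraries. The share of all genes tested with such a gap was not counted, so this is not shown to be particular to H1. The H3 genes ran from 0.86 to 1.25, the H2A genes from -0.01 to 0.75, the H2B genes from -0.06 to 0.71 and the H4 genes from -0.02 to 0.40.

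The places of H1, H3 and H4 were the same in every control replicate, while the size of loading was not. Loading of H1 was 2.28, 2.07, 3.13 and 4.35 in replicates 1 to 4, of H3 1.28, 1.33, 1.82 and 3.35, of H2A 0.987, 0.989, 1.51 and 2.51, of H2B 0.888, 0.886, 1.25 and 2.51, and of H4 0.685, 0.675, 1.02 and 2.14. H2A and H2B lay close together. As rounded they were equal in replicate 4 of control, and in replicate 2 of RAM siRNA they changed places (0.722 and 0.743). Without replicate 4 of both fractions, 13 histone genes were higher in polysomes and 4 lower, where 31.7% of all genes were higher and 33.9% lower. The 4 were all H4 genes, Hist1h4c (-0.73), Hist1h4j (-0.69), Hist4h4 (-0.57) and Hist1h4a (-0.53), and the median over the 55 was 0.09. The 6 H1 genes lay between 1.20 and 1.61. Other single libraries moved the count of called genes as well: it was 8 without replicate 1, 2 or 3 of input control, 22 and 29 without replicate 1 or 2 of polysome control, and 7 without replicate 3 of both fractions. The shares of all genes called in these fits are not given here, so such shifts are not shown to be particular to histone genes.

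**Figure D4:**
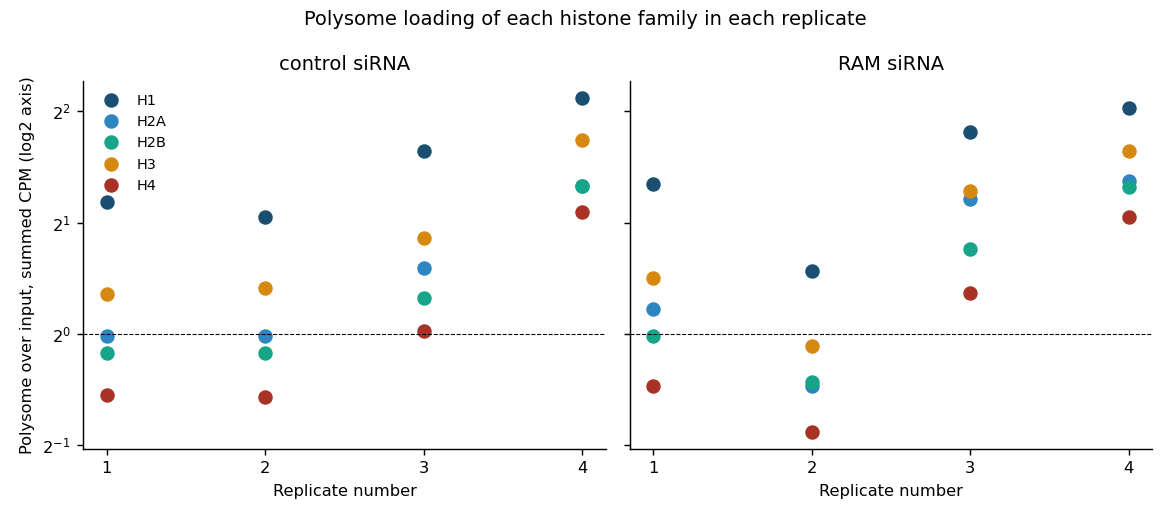
Polysome over input ratio of the summed CPM of each histone family (log2 axis) in the 4 replicates of control siRNA and of RAM siRNA; the dashed line is a ratio of 1. H1 is highest and H4 lowest in all 8 cultures, and replicate 4 lies above the others in every family.

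Across the 54 coding histone genes tested, loading and coding length were correlated (Pearson 0.85, Spearman 0.78), and so they were over the 48 without H1 (0.66 and 0.69). These genes share libraries and their length classes are their families, so family and length cannot be told apart. Other genes with a coding length over 300 and up to 500 bases had a median log2 ratio of -0.45 (736 genes, quartiles -0.96 and 0.11), where the 48 core histone genes had 0.51. Those over 500 and up to 700 bases had 0.19 (1068 genes, quartiles -0.54 and 0.71), where the 6 H1 genes had 1.59. In replicates 1 and 2 the core histone genes had medians of -0.17 and -0.20 and the other genes of 300 to 500 bases -0.66 and -0.76. The step of replicate 4 also varied with coding length in other genes. In polysome control, replicate 4 minus the mean of replicates 1 and 2 had a median of 0.75 on the log2 scale for other genes of 300 to 500 bases and -0.53 for those over 3000 bases. For the 48 core histone genes it was 1.94. In input control it was 0.49 for them, and within 0.06 of 0 for each length class of other genes.

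**Figure D5:**
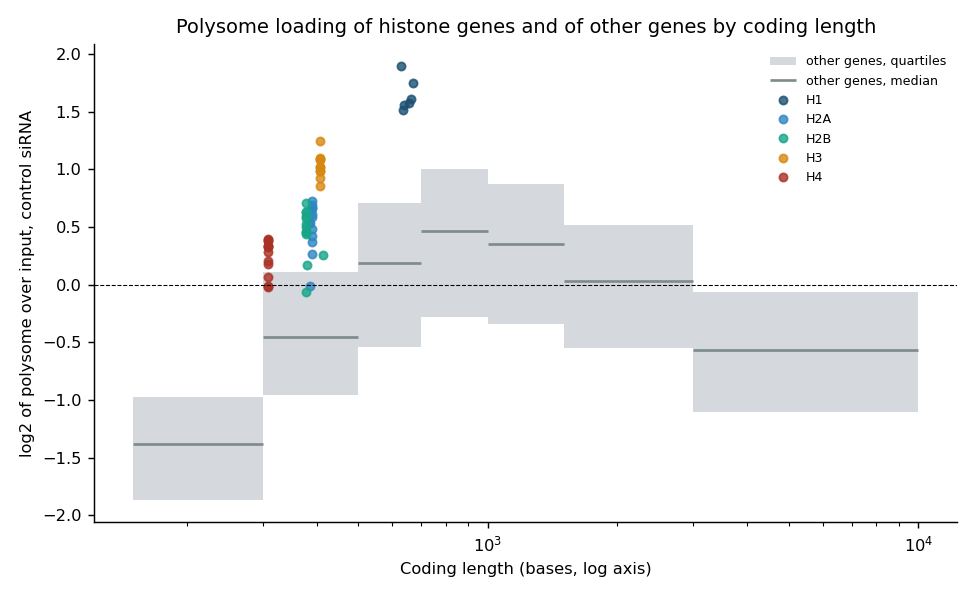
Log2 ratio of polysome over input in control siRNA cells against coding length (log axis), for histone genes by family and for other genes as the median (line) and quartiles (grey) of each length class; the outermost classes are shown with an end set for the plot. All H1 and H3 genes shown and most H2A, H2B and H4 genes lie above the upper quartile of other genes of their length.

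With the minimum of 10 mean input counts as the filter, all 58 genes were tested, and 21 were higher and 2 lower in polysomes, where 32.5% of all genes were higher and 35.6% lower. Those 2, named after their values were seen, were Hist2h2be (-3.65, standard error 0.46) and Hist2h3c2 (-1.33, standard error 0.32), both of the Hist2 cluster. This filter uses input alone, so a gene low in input and high in polysomes could not enter by it. Hist2h2be and Hist2h3c2, with mean input counts of 26.6 and 25.1, did not pass the filter over all 16 libraries. That they were lower in polysomes is thus partly set by the filter. Hist2h2be had 1.80, 1.45, 1.20 and 1.69 CPM in input control and 0.162, 0.0, 0.226 and 0.0569 CPM in polysome control. Its polysome values are at the floor of the counts.

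Whether RAM siRNA changed polysome loading of histone genes was tested as the difference between both comparisons. With and without the block 0 of 55 histone genes passed, where 0% of all genes did without the block and 0.0156% with it (edgeR). Since CPM relate each count to its library, a change of loading shared by all mRNAs cannot be seen here. The same holds for the comparison in polysomes. From the gradients the paper reports a lower ratio of polysomes to monosomes after RAM siRNA, and concludes that RAM promotes ribosome loading globally. Unadjusted p-values were under 0.05 for 0 histone genes without the block and for 1 with it, and DESeq2 called 0. The median log2 difference was 0.14 over histone genes and 0.00 over all genes. The smallest unadjusted p-values in edgeR belonged to Hist3h2ba (0.64, standard error 0.72, adjusted p = 1), Hist1h2aa (0.33, standard error 0.56, adjusted p = 1) and Hist1h2af (0.29, standard error 0.55, adjusted p = 1). With the block the values were 0.62 (standard error 0.23), 0.27 (standard error 0.18) and 0.19 (standard error 0.18).

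Of 23 genes for 3′ processing and decay, 2 fell and 0 rose in input without the block (median -0.06), and 6 fell and 3 rose with it, against 5.94% and 6.95% of all genes without the block and 19.0% and 20.3% with it. Zfp473, which encodes the U7-dependent factor ZFP100, fell by 0.57 (standard error 0.10, edgeR adjusted p = 0.00301), from 27.9, 25.7, 23.9 and 25.4 CPM to 17.0, 16.8, 15.2 and 20.4, with no overlap. Cpsf2, which encodes CPSF100 of the cleavage complex, fell by 0.28 (standard error 0.08, edgeR adjusted p = 0.0440), from 137, 125, 121 and 137 CPM to 108, 103, 96.2 and 122, with groups that overlapped at 1 library. Slbp had 97.1, 104, 99.0 and 104 CPM in control and 79.9, 88.7, 92.1 and 96.7 in RAM siRNA. The groups of Slbp did not overlap, but its change of -0.18 passed with the block only (adjusted p = 0.126 without and 0.00348 with it, edgeR).

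Of 26 S-phase genes 5 fell and 0 rose in input without the block (median -0.13), and 15 fell and 2 rose with it, against the same shares of all genes. Ccne1, which encodes cyclin E1, fell by 1.16 (standard error 0.10, edgeR adjusted p = 6.13e-05), from 294, 325, 352 and 313 CPM to 124, 133, 170 and 148. Rrm2, a subunit of ribonucleotide reductase, fell by 0.44, from 247, 247, 262 and 271 CPM to 170, 173, 196 and 218. Rrm1, the other subunit, fell by 0.40, from 171, 178, 164 and 191 CPM to 124, 133, 125 and 154. For these 3 genes the RAM siRNA library of replicate 4 was below its control, as in replicates 1 to 3. The other 2 that fell were Ccna2 (-0.29), which encodes cyclin A2, and Prim1 (-0.27), which encodes a primase subunit. Of 18 histone chaperone genes 1 fell and 1 rose, and with the block 6 fell and 1 rose, again against the same shares of all genes. Hira fell by 0.40, from 10.4, 10.3, 11.1 and 11.1 CPM to 8.57, 7.48, 8.05 and 8.54. Rbbp7 rose by 0.34, from 179, 187, 163 and 199 CPM to 206, 236, 209 and 272. The groups of both genes did not overlap.

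Histone genes outside these clusters, most of them for variants that are made outside S phase as well, were set beside them. Not all are free of the stem-loop, since H2afx is known to give an mRNA of that kind too. Of 11 such genes 1 fell in input and 0 rose, with a median of 0.00, against 5.94% and 6.95% of all genes. The gene that fell was H2afy (-0.24, adjusted p = 0.0344, edgeR), which encodes macroH2A1, from 81.7, 92.6, 81.2 and 87.5 CPM to 69.7, 73.1, 73.2 and 75.1. With the block 2 fell and 1 rose, against 19.0% and 20.3% of all genes. Whether they differ from the clustered genes was not tested. In polysome against input of control cells 4 of the 11 were higher and 3 lower, with a median of 0.33, against 33.1% and 34.3% of all genes.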

How the data were processed

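Reads were aligned with STAR 2.5.1b and the deposited counts are whole reads per gene as counted by the authors with HTSeq and not normalised. The annotation release and the counting settings for strand and shared reads are not given in the sources used here. All 16 libraries (16647523 to 20147833 counts) came from TruSeq stranded total RNA after rRNA depletion, and replicates are 4 separate occasions. P-values measure the spread between these samples of 1 line.

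A gene was tested where 10 or more of the 16 libraries reached 1 CPM (12805 genes), with edgeR 4.0.16 in R 4.3.3 (TMM, quasi-likelihood test, Benjamini-Hochberg adjustment over all genes, threshold 0.05). Fits used the libraries of each comparison, and change of loading was an interaction over all 16. DESeq2 1.42.0, other scalings and filters, and fits without single libraries were alternatives. The scripts were tested on simulated data. Same-numbered libraries pair: deviations from group means of 9140 genes correlated with r of 0.40 to 0.80 (input) and 0.62 to 0.94 (polysomes) between siRNAs, although polysome control 1 correlated as well with polysome RAM siRNA 2 (0.645) as with 1 (0.625). Stem-loops came from GENCODE M21, promoters from RefSeq (GRCm38.p6). The genes and lists were chosen with earlier results of these data known. Genes named are the 3 strongest of a family, those past the threshold (at most 5 a direction), the 3 with the smallest p for loading change and, of other lists, those past the threshold (at most 3 a direction) with Slbp, Ramac and Rnmt. Ccna2, Prim1, Hist1h2bc, Hist1h2bp and others said to be so were named after their values were seen. Some genes of the clusters, such as Hist1h2bm and Hist1h2bh, were not analysed here.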

Additional observations from a re-analysis of the deposited data

Results flagged for a closer look

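For 21 named histone genes the 4 libraries of each group were examined for 1 library far from the others (84 groups), by the gap of the outermost library to its neighbour over the range of the group. Chance marks about 1 in 20 groups. In 16 groups the gap was beyond Dixon's 95% limit, and in all 16 the outermost library was replicate 4, as the highest. The genes share libraries, so these are not independent.

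In input RAM siRNA the gap was 0.906 of the range for Hist1h1a (431 CPM, next 254), 0.879 for Hist1h1b (206, next 119), 0.906 for Hist1h1c (276, next 163), 0.940 for Hist1h1d (339, next 196) and 0.940 for Hist1h1e (171, next 100.0). Among core histone genes of that group it was 0.852 for Hist1h3c (139, next 82.2), 0.967 for Hist1h3e (321, next 187), 0.875 for Hist1h3f (210, next 117) and 0.853 for Hist1h4a (268, next 163). In input control it was 0.936 for Hist1h1b (209, next 145), 0.872 for Hist1h1d (346, next 253), 0.846 for Hist1h3e (267, next 197) and 0.906 for Hist1h4d (315, next 240). In polysome control it was 0.844 for Hist1h2bb (489, next 176), 0.840 for Hist1h2bg (360, next 136) and 0.833 for Hist1h3e (896, next 340).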

How the results depend on the processing

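In input, 2 histone genes were called without the block. The count was 6 with no filter on low counts, 26 with the replicate block, 29 with the block and a filter of 10 mean input counts, and 39 with the block and without replicate 4. It ran from 0 to 21 without 1 replicate of both siRNAs (1 without replicate 1, 0 without replicate 2) and from 1 to 24 without 1 library, 24 being without replicate 4 of RAM siRNA. In polysomes 0 became 3 with the block, 3 with the block and that filter, and 1 with the block and without replicate 4. For change of loading the count was 0 in every fit run. For polysome against input in control cells 14 became 37 with no filter, 23 with the filter of 10 mean counts, with and without the block, 7 to 21 without 1 replicate of both fractions and 8 to 29 without 1 library. The block alone gave 17. Shares of all genes called are given above for some of these fits only. A shift in count is thus not shown to be particular to histone genes.

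Without 1 library Hist1h2be ran from -0.36 to 0.01 in input, and for change of loading Hist1h2aa ran from -0.28 to 0.76 and Hist3h2ba from -0.05 to 1.19, the lowest of both without replicate 4 of polysome RAM siRNA. The cause was not tested. Fits without 1 replicate number in both groups, and those that join the block with another filter or leave out replicate 4, were chosen after seeing the data.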
